A study of Homo sapiens with 9 samples.

Results

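Regions of open chromatin whose peak calls were gained or lost in steps between solvent-treated VCaP cells, VCaP cells treated with enzalutamide and the enzalutamide-resistant line VCaP16 were collected from 9 ATAC-seq peak lists. The members were chosen by the measured peak calls themselves. On chromosomes 1 to 22 and X, overlapping peaks of the 9 lists were joined (minimum overlap 1 bp) into 94773 merged regions, and a library called a region if 1 of its peaks lay in it. A stepwise gain was called in 0 of 3 DMSO libraries, in 1 or 2 of 3 ENZ libraries and in 3 of 3 VCaP16 libraries. A stepwise loss was called in 3 of 3 DMSO libraries, in 1 or 2 of 3 ENZ libraries and in 0 of 3 VCaP16 libraries. The rule found 809 gains and 269 losses, 1078 regions in all, which is 0.854% and 0.284% of the merged regions. Since the calls made the choice, these counts and shares describe the data and test nothing by themselves.

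VCaP is a prostate cancer line, labelled wild type in all groups, and each of the 3 groups held 3 libraries. The DMSO group received the solvent, the ENZ group 10 µM enzalutamide for 96 h, and the VCaP16 group was the resistant line, grown and sampled with 16 µM enzalutamide. No VCaP16 library without the drug was analysed here, so dose, length of exposure and line differ together between ENZ and VCaP16 and cannot be told apart. The labels do not say whether replicates came from separate cultures or whether VCaP16 is 1 clone, so the p-values below measure the spread between these libraries, which may be technical.

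Enzalutamide is an antagonist of the androgen receptor, a nuclear receptor that binds DNA after hormone binding and drives much of the growth of prostate cancer cells. Binding sites of the receptor and of its partner factors lie mostly in enhancers, where bound factors keep nucleosomes away. In ATAC-seq the transposase Tn5 cuts and tags such open DNA, so a peak marks accessible chromatin at a promoter, enhancer or other regulatory site.

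The lists held 53799 to 57677 peaks in DMSO, 53646 to 61744 in ENZ and 57315 to 68921 in VCaP16. VCaP16 replicate 3, with 68921 peaks, and ENZ replicate 2, with 61744, were the longest lists, and both bear on the members. The depth of the libraries is unknown, because the lists hold no read counts. No 2 lists shared more than 0.199% of their peaks with identical edges, so no library was counted as a copy of another.

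Peak calls were gained in steps at more regions than they were lost. Gains outnumbered losses by 540 regions, a ratio of 3.01. Of the 809 gains, 463 were called in 1 ENZ library and 346 in 2. Of the 269 losses, 156 were called in 1 ENZ library and 113 in 2. In both directions the regions called in a single ENZ library were thus the larger class. The same held over all merged regions called in 1 or 2 ENZ libraries, with 18269 in 1 and 11894 in 2. This order is therefore no trait particular to the members.

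The members sat among the regions that separate VCaP16 from DMSO outright. Regions called in all 3 VCaP16 and in no DMSO library numbered 1543, or 1.63% of the merged regions, and the stepwise gains were 52.4% of them. Another 520 were called in no ENZ library and 214 in all 3. The reverse pattern, all 3 DMSO and no VCaP16 library, held 504 regions, or 0.532%, of which the stepwise losses were 53.4%, with 152 called in no ENZ library and 83 in all 3. In both directions, then, regions without any ENZ call outnumbered regions with every ENZ call. The same held for regions called in 2 VCaP16 and 1 DMSO libraries, at 905 against 451. For regions called in 1 VCaP16 and 2 DMSO libraries the numbers were 563 and 379. This order is therefore not particular to regions that separate VCaP16 from DMSO outright.

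Both counts were set beside the same counts over every assignment of the 3 labels to the 9 libraries. Exchanging the DMSO and VCaP16 labels turns gains into losses, so both directions have the same distribution. Over these assignments the count ran from 47 to 809, with a median of 200 and an upper quartile of 310. The 809 gains were the highest count of all, with 807 next (p = 0.000595, one-sided exact permutation test, the smallest p it can give). The 269 losses lay above the median but were reached or passed in 559 assignments (p = 0.333, one-sided exact permutation test). The difference of 540 was reached or passed in 50 assignments (p = 0.0298, two-sided exact permutation test with a smallest p of 0.00119), and the largest difference under any assignment was 685. Gains were thus more frequent than under any other labelling, by a margin of 2 regions over the next, while losses were no more frequent than under many other labellings. The question had been posed with these counts in view.

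**Figure D1:**
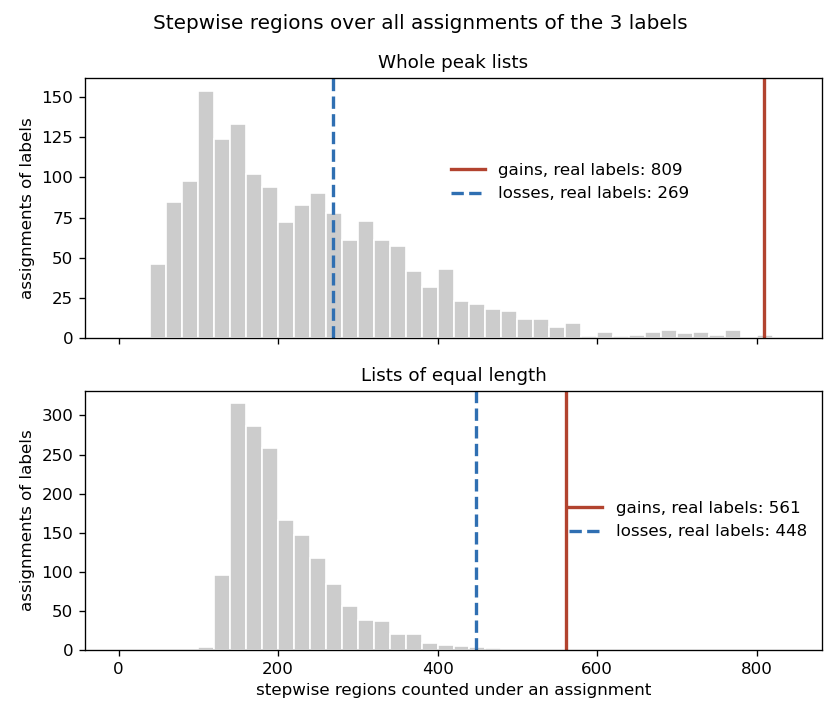
The number of stepwise regions (x axis) is plotted against the number of label assignments that gave it (y axis), for the whole peak lists above and for lists of equal length below, and vertical lines mark the gains (solid) and losses (dashed) under the real labels. With whole lists the gains, 809, stand at the right end and the losses, 269, within the bulk, and with equal lists the gains, 561, and the losses, 448, both stand toward the right end.

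The longest list moved with the high counts. Of the 20 assignments with the highest counts, all 20 put VCaP16 replicate 3 under the VCaP16 label, 12 also put ENZ replicate 2 there, and 8 held all 3 VCaP16 libraries together. When the VCaP16 libraries were kept together and labels exchanged only between DMSO and ENZ libraries, the 20 possible counts of gains ran from 389 to 809 with a median of 569, and 809 was again the highest, beside 807 (p = 0.05, one-sided exact permutation test, the smallest p possible). The losses then ran from 134 to 295 with a median of 208.5 (p = 0.15, one-sided exact permutation test). With the DMSO libraries kept together, the gains ran from 231 to 809 with a second highest count of 766. Their p was again 0.05, the smallest that this one-sided exact permutation test can give. The losses in that case ran from 128 to 394 with a median of 255.5 (p = 0.3, one-sided exact permutation test). The count of gains therefore led in each of these comparisons. Exchanging labels between DMSO and ENZ libraries, however, gave nearly as many regions, up to 807.

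The excess of gains over losses was smaller when all lists were cut to the same length. Why the lists differ in length was not tested. When only the 53646 best-scored peaks of each list were used, 561 gains and 448 losses were found, and the ratio fell from 3.01 to 1.25. Both counts then stood high among the assignments, whose counts ran from 113 to 561 with a median of 189. The gains had the highest count, with 491 next (p = 0.000595, one-sided exact permutation test), and the losses were reached or passed in 9 assignments (p = 0.00536, one-sided exact permutation test). The difference of 113 gave p = 0.0333 in the two-sided exact permutation test. With lists of equal length, stepwise regions in both directions were thus more frequent than under nearly all other assignments. Of the 20 highest counts, 16 held all 3 VCaP16 libraries together under the DMSO or the VCaP16 label. Only 6 held all 3 DMSO libraries together under 1 of these labels. With the VCaP16 libraries kept together, gains ran from 341 to 561 (median 424.5) and losses from 292 to 448 (median 353.5). Both observed counts were then the highest (p = 0.05 each, one-sided exact permutation test, the smallest p possible).

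Most of the losses found only in equal lists lay in regions that VCaP16 replicate 3 had called with its weaker peaks, in part together with other VCaP16 libraries. Of the 448 losses in equal lists, 212 were among the 269 found with whole lists and 236 were not. In the whole list of VCaP16 replicate 3, 188 of those 236 were called, and 117 were called, of that group, in replicate 3 alone. VCaP16 replicates 1 and 2 had called 57 and 62 of them. Among the gains, 474 of 809 kept their pattern in equal lists, 294 were no longer called in all 3 VCaP16 libraries and 41 lost their ENZ call. Of 87 regions that became gains only in equal lists, 47 had been called in the whole list of DMSO replicate 1, the longest of the DMSO lists.

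Leaving out VCaP16 replicate 3 gave 1029 gains and 648 losses, a ratio of 1.59, where leaving out VCaP16 replicate 1 or 2 gave 1496 or 1495 gains and 395 or 389 losses. Without this list the difference of 381 had p = 0.373 in the two-sided exact permutation test. Without ENZ replicate 2 and VCaP16 replicate 3 together, 659 gains and 436 losses remained, a ratio of 1.51. Without any other single library the ratio lay between 2.07 and 3.84. Gains outnumbered losses in every setting tried, as the plot of counts by setting shows, and of the single libraries left out VCaP16 replicate 3 lowered the ratio most. The difference also missed the threshold of 0.05 without each of the DMSO libraries, with p from 0.0625 to 0.193 in the two-sided exact permutation test.

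**Figure D2:**
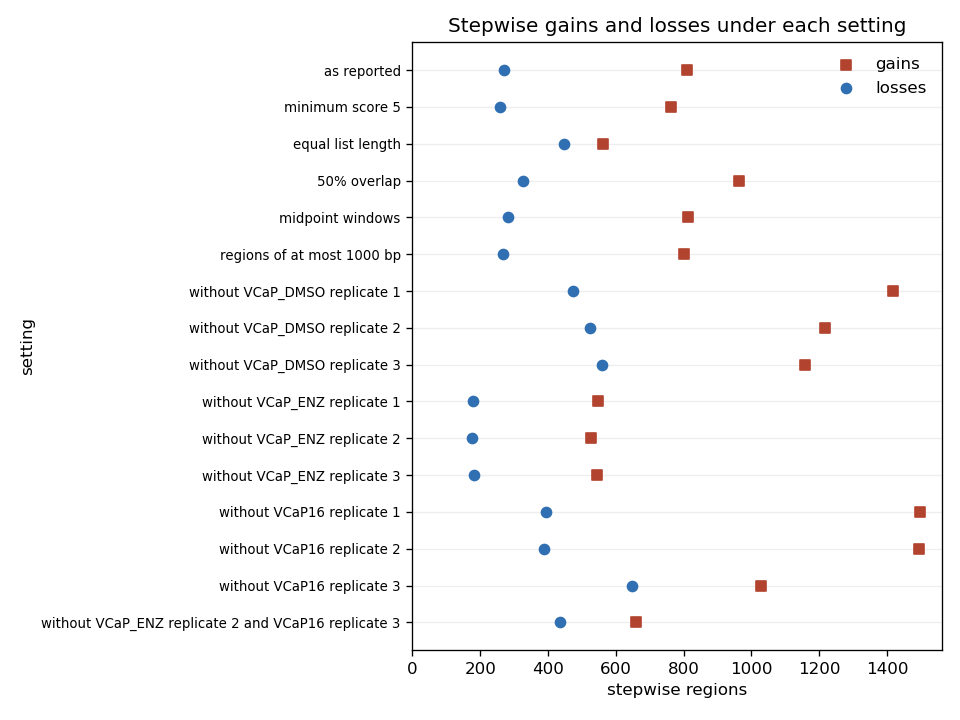
Stepwise gains (squares) and losses (circles) are plotted as counts of regions (x axis) for each setting (y axis). Gains exceed losses in every setting, and the points come closest, at 561 and 448, when all lists have the same length.

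Calls in 1 or 2 ENZ libraries were not more common among opposed regions than among mixed ones. Where 3 of the 6 DMSO and VCaP16 libraries called a region in a mixed way, 2 VCaP16 and 1 DMSO, 60.0% of 3390 regions were called in 1 or 2 ENZ libraries. For 1 VCaP16 and 2 DMSO libraries the share was 59.6% of 2331. Both shares lay above the 52.4% and 53.4% of the opposed regions, from which the members come. With lists of equal length the order was the same, at 51.0% and 51.9% for the opposed regions against 61.1% and 60.9% for the mixed ones. None of these shares was tested. Being called in 1 or 2 of 3 libraries records disagreement between the ENZ libraries. Its share was higher in the mixed regions, where libraries within DMSO and within VCaP16 also disagreed.

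The share of regions called per ENZ library was lowest for regions of VCaP16 without DMSO. Regions of all 3 VCaP16 and no DMSO libraries were called in 38.8% ± 6.35 (SD, n = 3) of cases per ENZ library, and those of all 3 DMSO and no VCaP16 in 41.7% ± 8.50 (SD, n = 3). The mixed regions were at 42.4% ± 10.3 and 44.9% ± 8.75 (SD, n = 3 each). The SD is the spread between the same 3 ENZ libraries for every share, so it is no error of a difference between shares. Regions of VCaP16 without DMSO had the lowest share within each library, at 36.1%, 46.1% and 34.3% in ENZ replicates 1, 2 and 3. Those of DMSO without VCaP16 stood at 39.3%, 51.2% and 34.7%. The mixed ones stood at 36.9%, 54.3% and 36.1%, and at 39.3%, 55.0% and 40.4%. In equal lists the spread shrank, to 38.9% ± 1.02 for regions of VCaP16 without DMSO and 46.9% ± 2.84 for regions of DMSO without VCaP16 (SD, n = 3 each), beside 44.4% ± 3.42 and 48.2% ± 2.07 for the mixed ones. The differences between these shares were not tested, in whole or in equal lists.

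**Figure D3:**
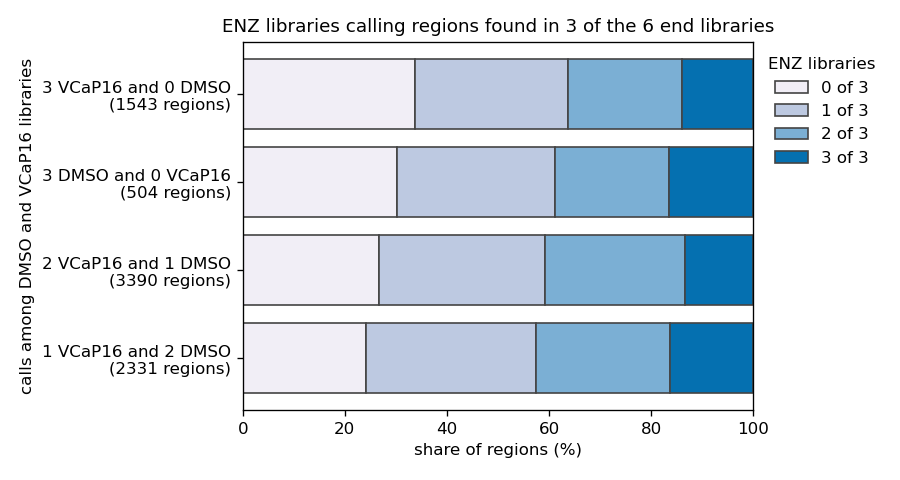
Each bar splits the regions called in 3 of the 6 DMSO and VCaP16 libraries by how many of the 3 ENZ libraries called them, as a share of regions in percent (x axis), for the 4 ways in which the calls fall among DMSO and VCaP16 (y axis). The segments for 1 and 2 of 3 ENZ libraries, which hold the stepwise members in the upper bars, add up to 52.4% and 53.4% there and to 60.0% and 59.6% in the lower, mixed bars.

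The ENZ library that made the call was not used by the rule, which counts only how many did. ENZ replicate 2, the longest ENZ list, called 497 of the 809 gains, or 61.4%. ENZ replicates 1 and 3 called 343 and 315 of them, or 42.4% and 38.9%. Among the 269 losses the replicates called 42.8%, 65.1% and 34.2% in that order. Over all 30163 merged regions called in 1 or 2 ENZ libraries the shares were 38.2%, 64.5% and 36.7%, so the lead of replicate 2 among the members was close to that in the data as a whole. In lists of equal length the lead shrank to 49.2%, 49.4% and 45.8% of the gains and 48.7%, 54.5% and 43.5% of the losses.

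The members were weak peaks. Each peak was placed within its own list by the authors' score, from 0% at the top to 100% at the bottom. The gains had median positions of 72.3%, 73.3% and 65.4% in VCaP16 replicates 1, 2 and 3. The losses had median positions of 74.5%, 76.2% and 74.5% in DMSO replicates 1, 2 and 3. Regions called in all 9 libraries, in contrast, had a median position of 29.5% over all their calls, against 74.0% for the gains, 77.2% for the losses and 78.4% for the other 8641 regions called in 4 or 5 of 9 libraries. The members thus lay in the lower part of the lists, like other variable regions.

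The lowest of the 3 scores that define a member shows how close it came to not being one. No list held a score under 2, and the weakest defining peak scored 2.02 among the gains and 2.10 among the losses. This lowest score had a median of 5.37 over the gains and 4.96 over the losses. It was below 3 in 76 gains (9.39%) and 18 losses (6.69%). At the other end it reached 10 in 94 gains (11.6%) and 23 losses (8.55%), and 20 in 8 gains and 5 losses. On the side of the group without a call, a peak of that group lay within 100 bp of 1 gain and of 2 losses. The nearest such peak abutted the gain with a gap of 0 bp, and the median gap was 11793 bp for the gains and 7873 bp for the losses. A missing call with a peak of the same group close by was thus rare among the members. A peak that overlapped the region would have counted as a call, so the rule itself keeps such peaks away. These counts and gaps were not computed for other regions. In most members the weakest defining peak scored above the lowest values listed.

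In the ENZ lists the members had median positions close to those of other variable regions. Gains had median positions of 81.4%, 79.0% and 83.7% in ENZ replicates 1, 2 and 3. Losses stood at 81.2%, 80.3% and 80.7%, and the other regions called in 4 or 5 of 9 libraries at 80.9%, 77.2% and 80.2%. For each member, positions were averaged over the ENZ lists that called it and over its 3 defining lists. The ENZ mean lay further down in 355 of 463 gains called in 1 ENZ library (76.7%) and in 247 of 346 called in 2 (71.4%). For the losses the counts were 102 of 156 (65.4%) and 69 of 113 (61.1%). Peak widths averaged in the same way had a median of 256 bp in ENZ against 320 bp in VCaP16 for the gains. For the losses the medians were 261 bp in ENZ against 311 bp in DMSO. The mean ENZ width was the narrower one in 577 gains (71.3%) and 178 losses (66.2%). Lists of different lengths place the same peak differently, so these positions do not measure a change in accessibility, and the rule itself selected regions that some ENZ libraries missed.

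In size and setting the members resembled other variable regions. The median merged width was 486 bp for the gains and 475 bp for the losses, beside 463 bp for the other regions called in 4 or 5 of 9 libraries and 838 bp for regions called in all 9. Only 7 gains and 2 losses were wider than 1000 bp. A merged region spans all of its peaks, so a further call can only keep or widen it. Gains called in 1 ENZ library had a median width of 468 bp and those called in 2 of 512 bp. For the losses these were 458 and 510 bp. The median distance to the nearest region called in all 9 libraries was 23102 bp for the gains, 22716 bp for the losses and 23291 bp for the other variable regions. It was at most 10 kb for 26.1% of the gains, 30.9% of the losses and 27.2% of the other variable regions, and over 100 kb for 12.9%, 10.8% and 12.9%. By this measure the medians of the members were close to those of other variable regions.

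The best-placed members are given next, the 8 in each direction and step with the best median position among the 3 libraries that define them. They were named by position, on hg19 coordinates, because no hg19 sequence or gene annotation was used here. Scores of several lists are set side by side as they were deposited; they move with the depth of each library, which is unknown, so an order between them is a description of the lists and no measure of a change in accessibility. The best-placed gain was chr22:24170860-24171399, 540 bp wide. Its peaks scored 47.8, 41.3 and 40.7 in VCaP16 replicates 1, 2 and 3 and 8.51 in ENZ replicate 3, and no DMSO library and neither other ENZ library had a peak there. Its median position was 8.93%, near the top of the lists. The next, chr17:219344-219741, scored 25.2, 34.2 and 41.0 in VCaP16 and 7.22 in ENZ replicate 3. At chr20:39988098-39988724 the scores were 29.0, 40.8 and 36.1 in VCaP16 and 3.41 in ENZ replicate 2. All 3 of these gains had high peaks in every VCaP16 library and 1 low peak in a single ENZ library.

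Not all gains with a single ENZ call followed that form. At chr4:73887456-73887819 the VCaP16 peaks scored 24.8, 22.5 and 34.7 and the peak in ENZ replicate 2 scored 23.6, within the range of the VCaP16 scores. At chr8:17394931-17395472 the VCaP16 scores were 7.80, 26.5 and 26.9, with 4.87 in ENZ replicate 2. The VCaP16 libraries thus differed more among themselves there than the lowest of them differed from the ENZ peak. The gain at chr11:87338954-87339454, with 34.1, 20.6 and 29.2 in VCaP16 and 5.75 in ENZ replicate 2, lay 206178 bp from the nearest region called in all 9 libraries, the farthest of the 8. The other 2 were chr5:157683009-157683403, with 24.1, 10.4 and 28.5 in VCaP16 and 5.87 in ENZ replicate 1, and chr5:14394536-14394822, with 18.2, 19.8 and 16.6 in VCaP16 and 7.64 in ENZ replicate 1. The last of these was the only one of the 8 that kept its pattern under each of 4 other settings: a minimum score of 5, lists of equal length, an overlap of 50% and windows about peak midpoints.

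Among gains called in 2 ENZ libraries, the best-placed was chr5:132975861-132976445. It scored 36.0, 24.3 and 36.8 in VCaP16 and 8.57 and 6.25 in ENZ replicates 2 and 3. At chrX:152032036-152032508 the VCaP16 peaks scored 17.5, 24.5 and 34.1 and the peaks of ENZ replicates 2 and 3 scored 5.24 and 7.02. In both, every ENZ peak scored lower than every VCaP16 peak. The second-placed, chr18:1464281-1464918, did not show this order, with 12.0, 24.8 and 30.4 in VCaP16 and 20.4 and 16.5 in ENZ replicates 1 and 2. The gain at chr11:66140814-66141159, with 28.3, 23.7 and 25.1 in VCaP16 and 8.17 and 7.58 in ENZ replicates 1 and 2, lay 623 bp from a region called in all 9 libraries, the nearest of the 8. The gain at chr3:169411963-169412336 scored 21.6, 17.7 and 25.7 in VCaP16 and 16.9 and 12.2 in ENZ replicates 2 and 3, and its highest ENZ score was close to its lowest VCaP16 score. The gain at chr8:66720007-66720475 broke the order as well, with 9.40, 22.3 and 22.9 in VCaP16 and 9.58 and 6.25 in ENZ replicates 2 and 3. The remaining 2, on chromosomes 6 and 12, had ENZ scores below all of their VCaP16 scores. ENZ replicate 2 called all 8, replicate 3 called 6 and replicate 1 called 2.

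**Figure D4:**
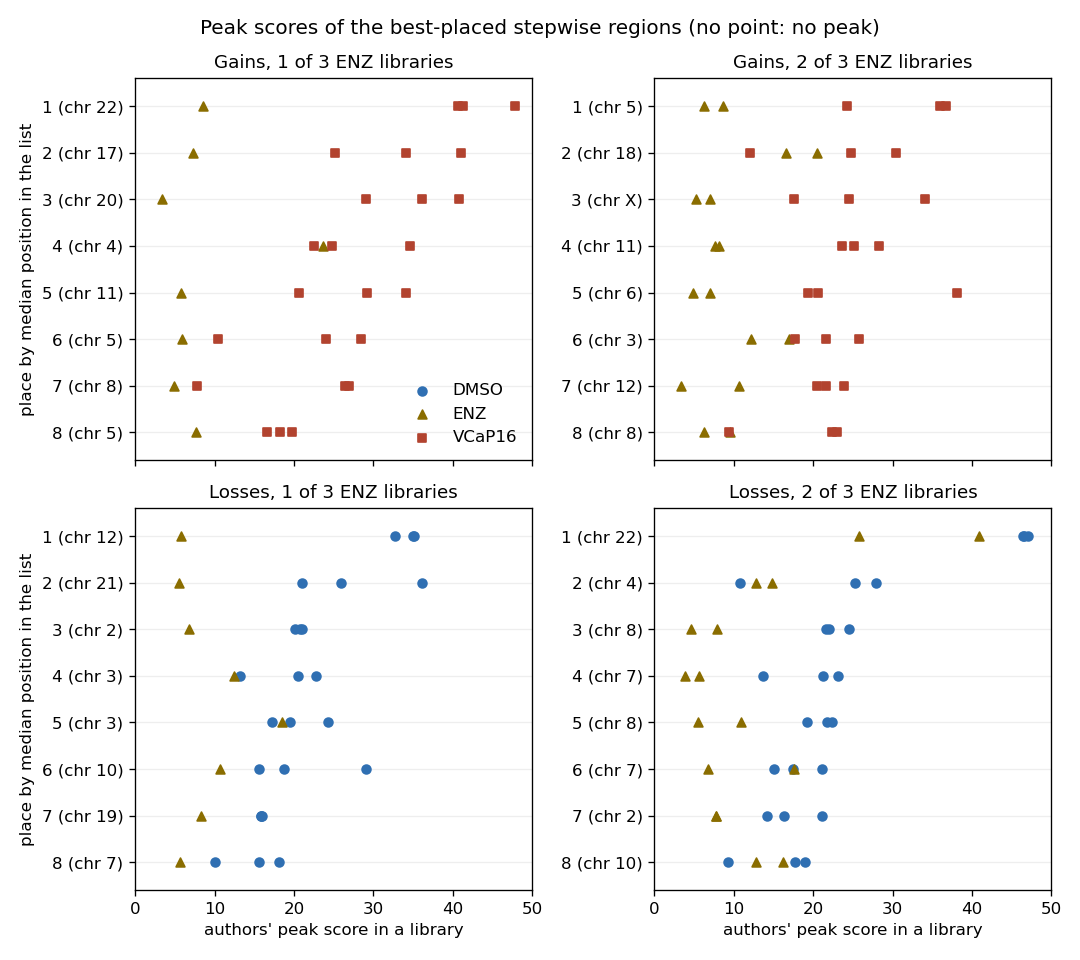
The authors' peak score (x axis, no unit) in each library is plotted for the 8 best-placed regions of each direction and step (y axis, place and chromosome), with circles for DMSO, triangles for ENZ and squares for VCaP16, and no point where a library had no peak. Most ENZ triangles lie left of the squares or circles of their row, and exceptions include the 4th gain with 1 ENZ call and the 5th loss with 1 ENZ call, whose ENZ scores of 23.6 and 18.5 fall among the others.

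Among the losses called in 1 ENZ library, chr12:57672160-57672831 was placed best. Its DMSO peaks scored 35.0, 35.2 and 32.7, ENZ replicate 2 had a peak of 5.83, and ENZ replicates 1 and 3 and all VCaP16 libraries had none. At chr21:30522419-30522867 the DMSO scores were 21.0, 26.0 and 36.1, with 5.56 in ENZ replicate 1, and at chr2:127838758-127839216 they were 20.2, 20.8 and 21.1, with 6.82 in ENZ replicate 1. In these 3 losses the single ENZ peak scored far lower than any DMSO peak. At chr3:69358884-69359244 it did not: DMSO scored 24.4, 19.5 and 17.2 and ENZ replicate 3 scored 18.5. The loss at chr19:13101963-13102426 had the most even DMSO scores of the 8, 15.8, 16.0 and 15.8, with 8.31 in ENZ replicate 2. The other 3, on chromosomes 3, 10 and 7, had ENZ scores of 12.4, 10.6 and 5.63.

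The loss with the highest scores of any named region in DMSO was chr22:18879972-18880465, called in 2 ENZ libraries. Its peaks scored 46.4, 47.1 and 46.5 in DMSO and 40.8 and 25.8 in ENZ replicates 2 and 3, and ENZ replicate 1 and the 3 VCaP16 libraries had no peak there. Its median position of 8.41% was the best of all members named. A peak of 40.8 in one ENZ library thus stood beside no peak in another. At chr8:131685254-131685723 the DMSO scores were 22.4, 19.3 and 21.7, with 10.9 and 5.52 in ENZ replicates 1 and 3. This loss had even DMSO scores and lower ENZ scores. At chr4:49516540-49517115 and chr10:42394149-42394923 the lowest DMSO scores, 10.8 and 9.27, fell below both ENZ scores, which were 12.8 and 14.8 at the former and 12.8 and 16.1 at the latter. At chr7:104431155-104431931 the score of 17.5 in ENZ replicate 1 lay above those of DMSO replicates 1 and 3 and below the 21.1 of DMSO replicate 2, and ENZ replicate 2 scored 6.70. DMSO and ENZ scores thus overlapped at these 3 losses. The remaining 3, on chromosomes 8, 7 and 2, had ENZ scores below all of their DMSO scores.

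The named regions differed in how they held under other settings. All 8 of each class kept their pattern with windows about peak midpoints. With an overlap of 50% only 2 of the 8 gains with 1 ENZ call did, against 5 of 8 gains with 2 calls, 4 of 8 losses with 1 call and 5 of 8 losses with 2 calls. A minimum score of 5 and lists of equal length each removed 2 gains with 1 ENZ call, those on chromosomes 20 and 8 with ENZ scores of 3.41 and 4.87, and none of the other named regions. Over all members, 161 gains (19.9%) and 55 losses (20.4%) kept the pattern under all 4 settings, and 11 gains and 2 losses under none. An overlap of 50% gave 962 gains and 325 losses, of which 328 and 117 were members (40.5% of the 809 gains and 43.5% of the 269 losses). Midpoint windows gave 812 gains and 281 losses and kept 97.4% and 98.1% of the members. A setting could thus give a similar number of regions with either a similar or a largely different membership.

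Gains exceeded losses on each of the 23 chromosomes. The median share of gains among regions called in 4 or 5 of 9 libraries was 8.24% per chromosome, and over the genome it was 8.32% for gains and 2.77% for losses. Chromosome 5 had the highest share of gains, 56 of 519 regions (10.8%), and chromosome 11 the next (10.1%). Chromosome 19 had the lowest, 12 of 298 (4.03%), beside 11 losses (3.69%), the highest share of losses, and a ratio of 1.09. On chromosome 13, at the other end, 24 gains stood beside 5 losses, a ratio of 4.80. With lists of equal length chromosome 19 held 15 gains and 18 losses. Counts per chromosome were small and were not tested.

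**Figure D5:**
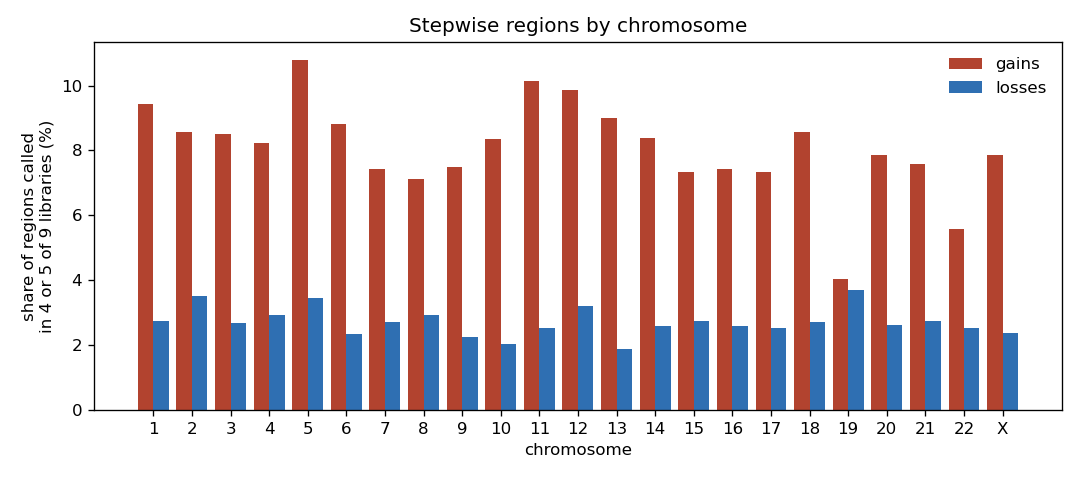
Bars give gains and losses as a share, in percent, of the regions called in 4 or 5 of 9 libraries on each chromosome (x axis). The bar for gains is the taller one on all 23 chromosomes and is closest to that for losses on chromosome 19, at 4.03% and 3.69%.

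Members of one direction rarely lay side by side. Of the 809 gains, 70 (8.65%) lay within 100 kb of another gain, as 35 pairs and in no longer run, and none of the 269 losses lay within 100 kb of another loss. The median distance to the nearest member of the same direction was 977 kb for the gains and 3140 kb for the losses, which are also fewer. The closest pair of gains was chr20:32856803-32857401 and chr20:32857845-32858329, 443 bp apart. Most stepwise regions thus had no other member of their direction within 100 kb. Such distances widen as members become fewer, and they were not computed for the other variable regions. Whether the spacing is particular to the members was therefore not tested.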

How the data were processed

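Accessible chromatin was measured by ATAC-seq in 9 libraries, 3 each of VCaP with DMSO, VCaP with ENZ and VCaP16. The authors deposited 1 peak list per library, giving the position and score of each peak, with calls made for each library separately. The meaning of the deposited score, any read filter and any Tn5 offset are not given in the sources used here, and the submitters' processing notes list MACS2 2.2.7.1, HOMER 3.12, BWA 0.7.15-r1140 and the build hg19 with no roles. The labels' protocol describes a bulk and a single-cell preparation without assigning them to lists. Read depth, which moves peak number and score, is unknown, so no interval could be given, and lists of equal length stood in for a depth correction. Positions were taken within each list; scores of different lists were set side by side only as a description, and a minimum score of 5 was applied to all lists alike.

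Merging, calling and label assignments were run in Python 3.11.15 with NumPy 2.4.6 and pandas 2.3.3, and 1417 peaks outside chromosomes 1 to 22 and X were left out. No other filter by genomic position, such as one for repeated sequence, was applied here, so members may include such sites. Groups came from the labels. Gains and losses were tested by exact permutation over all 1680 assignments of 3 labels to 9 libraries, one-sided for high counts and two-sided for their difference, with a threshold of 0.05. The counting was tested on simulated data and recovered the seeded regions. Named regions are the 8 of each direction and step with the best median position by score in the 3 defining lists, and the members nearest each other. The members, lists and rules were chosen with earlier results of these data known. Other settings were that minimum score, equal list length, an overlap of 50%, windows of 250 bp about midpoints, regions of at most 1000 bp, leaving out libraries and a replicate block; keeping the DMSO or VCaP16 libraries together was added after seeing the data. Planned gene lists and motifs were not run because a sequence and gene models on hg19 were not used here.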

Additional observations from a re-analysis of the deposited data

How the results depend on the processing

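Gains exceeded losses under every setting tried, and the gains kept p below 0.05 in the one-sided exact permutation test in all settings but the 2 that kept a group together. Lists of equal length moved the losses to 448. An overlap of 50% gave a difference of 637 (p = 0.0905, two-sided exact permutation test), and leaving out ENZ replicate 2 and VCaP16 replicate 3 together gave 436 losses and a difference of 223 (p = 0.229, two-sided exact permutation test). Without single libraries in turn, gains ran from 527 to 1496, losses from 177 to 648 and the difference from 350 to 1106; the rule is then met by fewer libraries, and fewer label assignments exist. The difference missed the threshold without any one of the DMSO libraries (p = 0.0625 to 0.193) and without VCaP16 replicate 3 (p = 0.373) in the two-sided exact permutation test. With the VCaP16 or the DMSO libraries kept together, settings added after seeing the data, p of the gains was 0.05 in each case, the smallest those 20 assignments allow. With labels exchanged only within a replicate number (replicate block), the exact permutation p was 0.00463 for gains, 0.398 for losses and 0.0648 for the difference. Deviations of same-numbered libraries correlated at -0.00478 to 0.0102 over 9 pairs, none above 0.1, so the numbers were not taken to pair the samples. The causes of these shifts were not tested.

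The lists give calls and not read counts. A region without a peak is therefore one not called at the depth of that library, and it was not shown to be closed. With 3 libraries a group, a call in 1 or 2 of 3 cannot be told apart from a region near the calling threshold in every ENZ library.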
